A study of Rattus norvegicus with 4 samples.

Results

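The STAT genes encode latent transcription factors that carry cytokine and hormone signals to the nucleus. The members described here were *Stat2*, *Stat3*, *Stat4*, *Stat5a*, *Stat5b*, and *Stat6*, 6 of the 16992 genes left in the liver tables after filtering, and each was taken by its gene symbol in the 4 deposited tables. RNA-seq was performed on the left lateral liver lobe of 4 wild-type male Wistar rats, 6 weeks old at purchase, with 1 rat for each of 4 conditions. One pair of rats inhaled sevoflurane (4.5%) and the other inhaled desflurane (6.0%), both in 50% oxygen, and in each pair 1 rat was kept anesthetized for 6 hours whereas its control was killed as soon as it lost consciousness, after less than 1 minute. The controls had therefore also inhaled the agent. All rats were without food and water for 2 hours before anesthesia, and all were killed at about the same time of day. The 6 hour rats then also spent the 6 hours of anesthesia without food, unlike the controls. This longer time without food cannot be told apart from anesthesia. Because a condition is 1 liver, the spread between animals is unknown, and no test or p-value accompanies the differences below. Between 4.47 and 5.40 Gb of aligned sequence, as computed from coverage and FPKM, stood behind each library. In whole liver, fewer cells of a type and less RNA per cell cannot be told apart.

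In the general scheme, a cytokine or hormone receptor without kinase activity of its own recruits Janus kinases, which phosphorylate the receptor and then a STAT protein, and the STAT dimer enters the nucleus and binds DNA. STAT2 works with IRF9 in the type I interferon response, STAT3 carries IL-6 family signals to the acute phase genes of hepatocytes, and STAT4 serves IL-12 in T and NK cells. STAT5A and STAT5B carry growth hormone and prolactin signals, with STAT5B best known in liver for the male pattern of growth hormone action, and STAT6 serves IL-4 and IL-13. SOCS proteins and CISH are induced by STATs and inhibit the same receptors. Activity of STAT proteins is set largely by phosphorylation, which RNA levels do not show.

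*Stat3*, *Stat5a*, and *Stat5b* are neighbors in the rn6 genome used for the files. *Stat5b* lies at chr10:88686207-88754822 on the minus strand, *Stat5a* at chr10:88764732-88789059 on the plus strand, and *Stat3* at chr10:88790406-88842233 on the minus strand. *Stat5b* and *Stat5a* are transcribed away from each other from starts 9910 bp apart, and the ends of *Stat5a* and *Stat3* are separated by 1347 bp. *Stat2* (chr7:2691369-2707151, plus strand) and *Stat6* (chr7:70946228-70963542, plus strand) share a chromosome at a distance of 68239077 bp, and *Stat4* lies at chr9:54340650-54457753 on the minus strand. These are whole gene spans, introns included. Each member had 1 row per table at the same position in all 4, and no other annotated gene overlapped any of them. The promoters of the 3 neighbors are shown because *Stat3* was higher after 6 hours with both agents whereas *Stat5a* and *Stat5b* were lower. Each is the 250 bases before the annotated start in RefSeq (build GRCr8, which differs from the build of the files), read 5′ to 3′ on the strand of the gene, with CG dinucleotides in capitals. They lie at chr10:86363360-86363609 (minus strand) for *Stat3*, chr10:86285609-86285858 (plus strand) for *Stat5a*, and chr10:86275953-86276202 (minus strand) for *Stat5b*.
Stat3: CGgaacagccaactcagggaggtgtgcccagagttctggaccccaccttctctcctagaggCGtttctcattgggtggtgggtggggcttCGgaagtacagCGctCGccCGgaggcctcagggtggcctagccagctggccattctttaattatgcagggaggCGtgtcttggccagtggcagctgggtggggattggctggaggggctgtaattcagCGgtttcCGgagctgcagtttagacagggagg
Stat5a: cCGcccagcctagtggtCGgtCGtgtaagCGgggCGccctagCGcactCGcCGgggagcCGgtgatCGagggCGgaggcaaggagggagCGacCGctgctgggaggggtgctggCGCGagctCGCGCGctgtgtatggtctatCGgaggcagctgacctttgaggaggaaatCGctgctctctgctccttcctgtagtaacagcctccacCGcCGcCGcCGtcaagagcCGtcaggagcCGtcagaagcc
Stat5b: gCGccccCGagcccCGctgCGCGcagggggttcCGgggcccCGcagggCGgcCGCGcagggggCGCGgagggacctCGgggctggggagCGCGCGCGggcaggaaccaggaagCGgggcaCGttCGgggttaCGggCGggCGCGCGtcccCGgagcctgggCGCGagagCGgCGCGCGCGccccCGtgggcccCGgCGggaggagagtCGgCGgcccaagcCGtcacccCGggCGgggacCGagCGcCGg

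The *Stat5b* window held 44 CG dinucleotides and that of *Stat5a* held 26, more than in 99.5% and 91.4% of the 33469 rat promoters in the table. The *Stat3* window held 9, the *Stat2* window 18, the *Stat6* window 12, and the *Stat4* window 1, against a median of 5. All 6 members were found in the promoter table. Windows of 300 bases (the same 250 plus 50 after the start) were searched on both strands for TTCNNNGAA, the palindrome bound by most STAT dimers, for TTC and GAA separated by 4 bases, the wider spacing preferred by STAT6, and for GAAA and GAAA separated by 2 bases, the core of the interferon-stimulated response element. None of these motifs occurred in the windows of the 6 members, and they occurred in 8.87%, 7.28%, and 3.92% of all promoters, respectively. The second motif was added after the values had been seen. Elements outside these windows were not examined.

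The level of a gene is given as TPM (a StringTie value scaled for transcript length and library size), which allows members to be compared with each other. *Stat2* and *Stat3* were the most abundant, with mean TPM values of 49.6 and 50.5 over the 4 libraries, higher than those of 89.8% and 90.1% of all genes. *Stat5b* (33.4) and *Stat6* (24.4) followed, *Stat5a* averaged 4.95, and *Stat4* averaged 0.434. The ranges over the 4 libraries overlapped between *Stat2* and *Stat3* and between *Stat5b* and *Stat6*, so neighbors in these pairs do not differ beyond their spread over the livers, although *Stat5b* was above *Stat6* within each library. The ranges of *Stat3* and *Stat5b*, of *Stat6* and *Stat5a*, and of *Stat5a* and *Stat4* did not overlap. The order of the 6 genes was the same in both controls and after 6 hours of desflurane, and after 6 hours of sevoflurane *Stat3* moved ahead of *Stat2*.

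**Figure D1:**
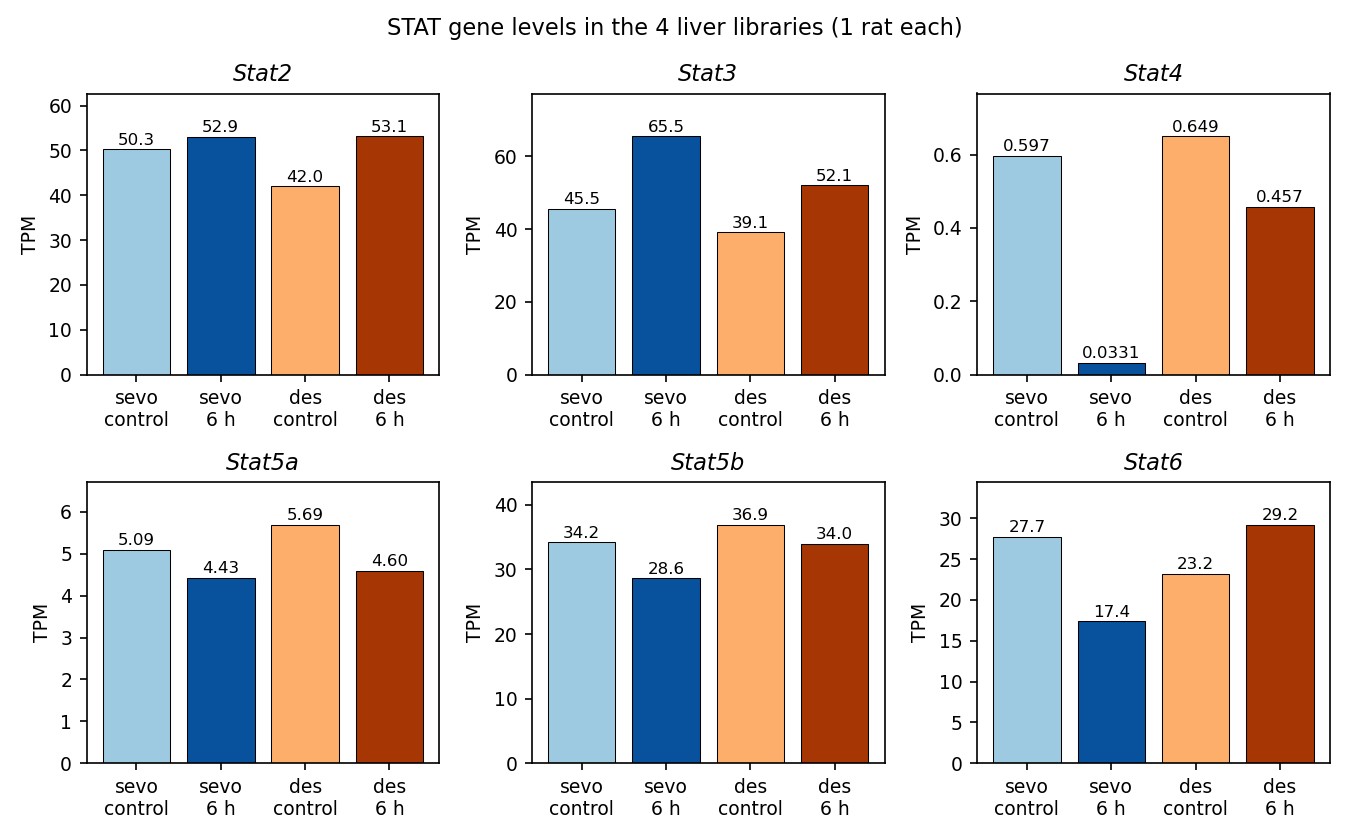
TPM value of each STAT gene (vertical axes, each starting at 0 with its own scale) in the 4 liver libraries, 1 bar per library and 1 rat per bar. *Stat3* is higher in both 6 hour livers (65.5 and 52.1) than in both controls (45.5 and 39.1), and *Stat6* is lowest after 6 hours of sevoflurane (17.4).

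None of the members passed the calling rule of the study in any of 6 comparisons. This rule asks for a TPM value higher than 2 in the higher library and more than a 2-fold difference. *Stat4*, below 2 TPM everywhere, could not pass, which left 5 members. Over all genes above the limit in either library, the rule called 2.23% higher and 3.3% lower with sevoflurane against its own control, and 2.79% higher and 1.48% lower with desflurane. Against the control of the other agent, it called 2.52% higher and 2.59% lower with sevoflurane and 2.84% higher and 1.58% lower with desflurane. Between the controls it called 1.17% in each direction, and between the 6 hour livers 2.76% were higher and 1.17% lower with desflurane. A count of 0 among 5 members is therefore near this background, and the changes described next are all smaller than 2-fold apart from those of *Stat4*. Among the 9595 genes with a mean TPM value higher than 2, the typical gene was slightly higher at 6 hours, with a median log2 change against the own control of 0.05 for sevoflurane and 0.12 for desflurane. Of these genes, 56.8% were higher with sevoflurane and 66.7% with desflurane, shares to be kept in mind beside each count of directions below. For the 5 members the medians were -0.20 and 0.33.

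*Stat3* was higher after 6 hours with both agents. Its TPM values were 45.5 in the sevoflurane control and 65.5 after 6 hours of sevoflurane, and those of the desflurane pair were 39.1 (control) and 52.1 (6 hours). The lowest 6 hour liver was 1.14-fold above the highest control, so the 2 states did not overlap. Against their own controls, the differences were 1.44-fold with sevoflurane (log2 change 0.52) and 1.332-fold with desflurane (0.41). Of the 9595 genes, 9.71% were at least as far upward with sevoflurane and 18.4% with desflurane. The changes were 0.47 and 0.29 after median-of-ratios scaling, which sets the typical gene to no change. Against the desflurane control, *Stat3* after sevoflurane was 1.68-fold higher, and it passed there when the fold limit was lowered to 1.5, as did 8.64% of genes in that direction.

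*Stat2* was also higher in both 6 hour livers, but by little. It was measured at 50.3 TPM in the sevoflurane control and 52.9 after 6 hours of the agent, and at 42.0 and 53.1 TPM in the desflurane pair. The desflurane control was the low value, and the other 3 livers were close together. The difference was 1.05-fold with sevoflurane and 1.27-fold with desflurane (log2 changes 0.08 and 0.34), and after median-of-ratios scaling it was 0.02 and 0.21. After this scaling the 6 hour livers overlapped with the controls, and *Stat2* with desflurane was slightly below the sevoflurane control (-0.02).

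*Stat5b*, the more abundant of the STAT5 genes, was lower after 6 hours with both agents. It was 34.2 TPM in the sevoflurane control and 28.6 after 6 hours, and 36.9 and 34.0 TPM in the corresponding desflurane livers. The states did not overlap, although the desflurane 6 hour liver was only 0.994-fold of the sevoflurane control. The log2 changes against own controls were -0.26 with sevoflurane and -0.12 with desflurane, and 18.8% and 21.3% of genes were at least as far downward. In assembled rows, which StringTie listed under its own names, the change with sevoflurane was -0.19 and that with desflurane was reversed to 0.05. These rows covered 40116 to 47369 bp of the 68616 bp of *Stat5b*. Whether the annotation guided their assembly is not known.

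*Stat5a* showed the same directions at a lower level. The TPM values were 5.09 and 4.43 in the sevoflurane pair and 5.69 and 4.60 in the desflurane pair, with both controls above both 6 hour livers. These values correspond to log2 changes of -0.20 and -0.31. *Stat5b* was between 6.46-fold and 7.39-fold as abundant as *Stat5a* in each of the 4 libraries. The STAT5 genes are close paralogs, and how the reads of their shared stretches were divided is not known, which makes the level of each one uncertain.

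*Stat6* went in opposite directions with the agents. It was 27.7 TPM in the sevoflurane control and 17.4 after 6 hours of sevoflurane, whereas in the desflurane pair it was 23.2 in the control and 29.2 at 6 hours. The sevoflurane 6 hour liver was below both controls and the desflurane 6 hour liver above both. Against own controls, *Stat6* was 1.59-fold lower with sevoflurane (log2 change -0.67) and 1.26-fold higher with desflurane (0.33). After median-of-ratios scaling these changes were -0.72 and 0.20, and desflurane against the sevoflurane control became -0.03. Directly compared after 6 hours, *Stat6* was 1.68-fold higher with desflurane, the largest such difference among the 5 members above 2 TPM. Under a fold limit of 1.5, *Stat6* passed as lower with sevoflurane against its own control, as did 8.08% of genes, and as higher with desflurane than with sevoflurane after 6 hours, as did 8.98%.

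*Stat4* was barely detected. Its TPM values were 0.597 and 0.649 in the controls for sevoflurane and desflurane, and 0.0331 and 0.457 in the respective 6 hour livers. The average coverage of its exons was 1.07 and 1.22 reads per base in these controls and 0.0560 and 0.770 in the 6 hour livers, and the other members had between 7.49 and 111. The sevoflurane 6 hour liver was the low value by far, and both 6 hour livers were below both controls. Without the TPM limit *Stat4* passed as lower with sevoflurane against either control and as higher with desflurane after 6 hours. Among genes listed above 0, this setting called 9.41% lower against the sevoflurane control, 9.99% lower against the desflurane control, and 10.4% higher in the 6 hour comparison.

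**Figure D2:**
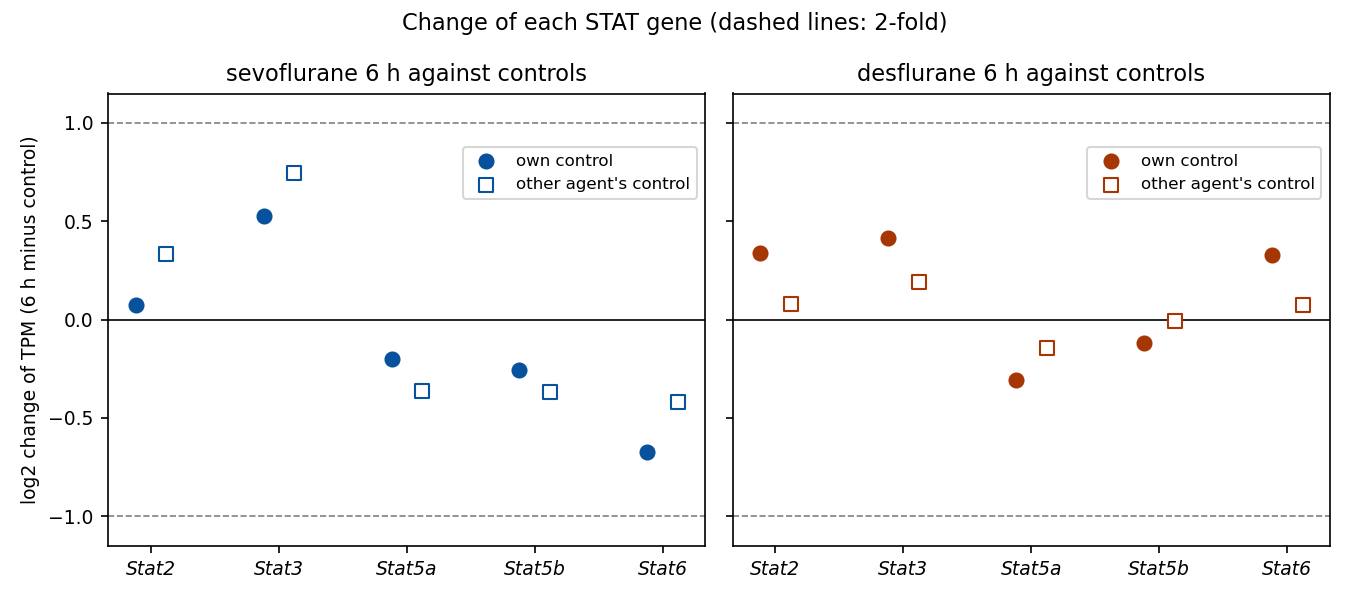
Log2 change of TPM (vertical axis) of the 5 members above 2 TPM after 6 hours of sevoflurane (left) or desflurane (right), against the control of the same agent (filled circles) and of the other agent (open squares), 1 liver per value. All points lie within the dashed 2-fold lines, *Stat3* is above 0 and *Stat5a* below 0 in all 4 comparisons shown, and *Stat6* is below 0 with sevoflurane and above 0 with desflurane, although its point against the sevoflurane control falls to -0.03 after median-of-ratios scaling.

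Among the 5 members, *Stat2* and *Stat3* had both 6 hour livers above both controls and *Stat5a* and *Stat5b* had both below. The same held upward for 33.3% and downward for 13.3% of the 9993 genes above 2 TPM in at least 1 library, so the upward count is near the background. With FPKM values in place of TPM, *Stat5a* and *Stat5b* kept this separation, and *Stat2* and *Stat3* did not. *Stat5a* was then below 2 in every library (1.99 and 1.97 in the controls, 1.67 and 1.51 after 6 hours). The 6 hour livers are not replicates of each other, since the agents differ. Between the 2 controls, *Stat2*, *Stat3*, and *Stat6* were lower in the desflurane control (log2 differences -0.26, -0.22, and -0.25) and *Stat5a* and *Stat5b* were higher (0.16 and 0.11). The change of *Stat3* against its own control was larger than its difference between controls with both agents, whereas that of *Stat2* with sevoflurane and that of *Stat5b* with desflurane (0.08 and -0.12) were smaller than or about as large as theirs.

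The ratio of 2 members within a library does not depend on how libraries are scaled. *Stat3* was 1.331-fold of *Stat5b* in the sevoflurane control and 2.29-fold after 6 hours of sevoflurane, and these ratios were 1.06 and 1.53 in the desflurane livers. The ratio of *Stat3* to *Stat6* was 1.64, 3.77, 1.68, and 1.78 (control and 6 hours of sevoflurane, then control and 6 hours of desflurane). The sevoflurane 6 hour liver stood apart from the other 3. The 6 genes summed to 163, 169, 148, and 173 TPM in this order, and *Stat3* made up 27.9%, 38.8%, 26.5%, and 30.02% of these sums. The share of *Stat6* was 17.0%, 10.3%, 15.7%, and 16.8%.

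**Figure D3:**
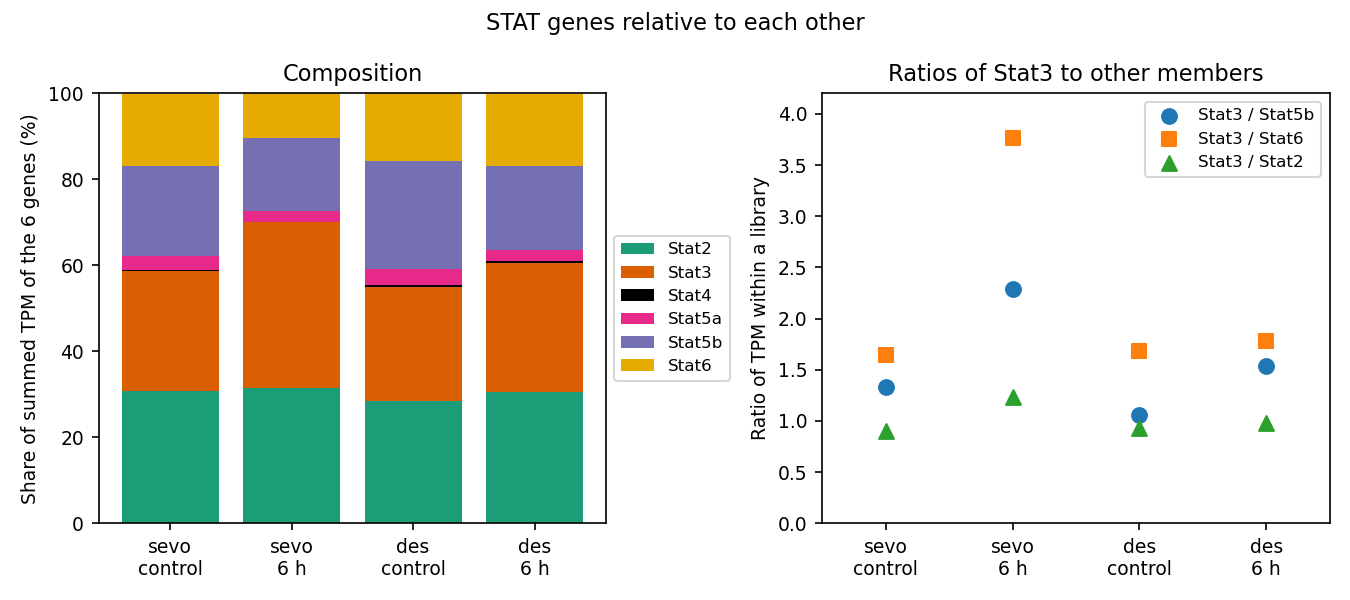
Left, share of each gene in the summed TPM of the 6 STAT genes (vertical axis, %) in the 4 libraries. Right, ratio of *Stat3* to 3 other members within each library, where the ratio to *Stat5b* is higher after 6 hours in both pairs and the ratio to *Stat6* is highest after 6 hours of sevoflurane (3.77).

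Genes with the most similar profiles were found by the root mean square difference of log2 TPM values over the 4 libraries after centering each gene, among genes above 2 TPM in all 4. For *Stat3* the nearest were *Ube2g2*, *Specc1*, and *Sec23b* (differences 0.02 for each), and for *Stat2* they were *Med20*, *Tsg101*, and *Mtif2* (0.01 for each). *Stat5a* was nearest to *Agpat1*, *Msrb2*, and *Anp32a*, and *Stat5b* to *Rbbp8*, *Rad50*, and *Vezf1*. *Stat6* was nearest to *Pced1b*, *Pth1r*, and *Abtb2* (0.02 to 0.03). For *Stat4*, 1 TPM was added before taking logarithms, and *Itgb2*, a leukocyte integrin, *Tmem164*, and *Tmem19* came first. With 4 points per profile, close matches are common, and this is a description only. *Stat5b* was at rank 200 from *Stat5a*, and *Stat2* was at rank 1243 from *Stat3*, of 9135 genes.

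Like *Stat4* and *Stat6*, the marker sums of all leukocytes, T and NK cells, B cells, and macrophages were lowest after 6 hours of sevoflurane. In the other 3 livers these sums did not follow the 2 genes throughout. The 12 genes expressed by all leukocytes summed to 164 and 85.8 TPM in the sevoflurane pair (control, then 6 hours) and to 128 and 122 TPM in the desflurane pair, and all 12 were lower with sevoflurane. The sums in the same order were 56.2, 37.5, 48.7, and 51.9 for 20 genes of T and NK cells, 13.9, 7.22, 11.1, and 12.0 for 6 B cell genes, and 809, 485, 641, and 757 for 11 genes of macrophages and Kupffer cells, the resident macrophages of the liver. With sevoflurane 17, 5, and 11 of these genes were lower, and with desflurane 8, 2, and 2. In the desflurane pair *Stat4* was lower although the T and NK cell sum was higher, and *Stat6* was higher although the sum over all leukocytes was lower. The T cell genes *Cd3d*, *Cd3g*, and *Trat1* were each listed at 0 in at least 1 library. Hepatocyte markers such as *Alb* were abundant in all livers, and the sums of the 10 hepatocyte genes ranged from 132213 to 147937 TPM. Endothelial sums ranged from 322 to 369 TPM, stellate and fibroblast sums from 323 to 367, cholangiocyte sums from 14.3 to 21.0, erythroid sums from 34.2 to 84.5, and neutrophil sums from 1.38 to 4.63. The erythroid and neutrophil sums were lowest after 6 hours of desflurane, not of sevoflurane. Pancreatic acinar genes summed to 51.2 in the sevoflurane control and to between 15.4 and 18.5 elsewhere. The part of cell composition in the values of *Stat4* and *Stat6* was not tested.

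**Figure D4:**
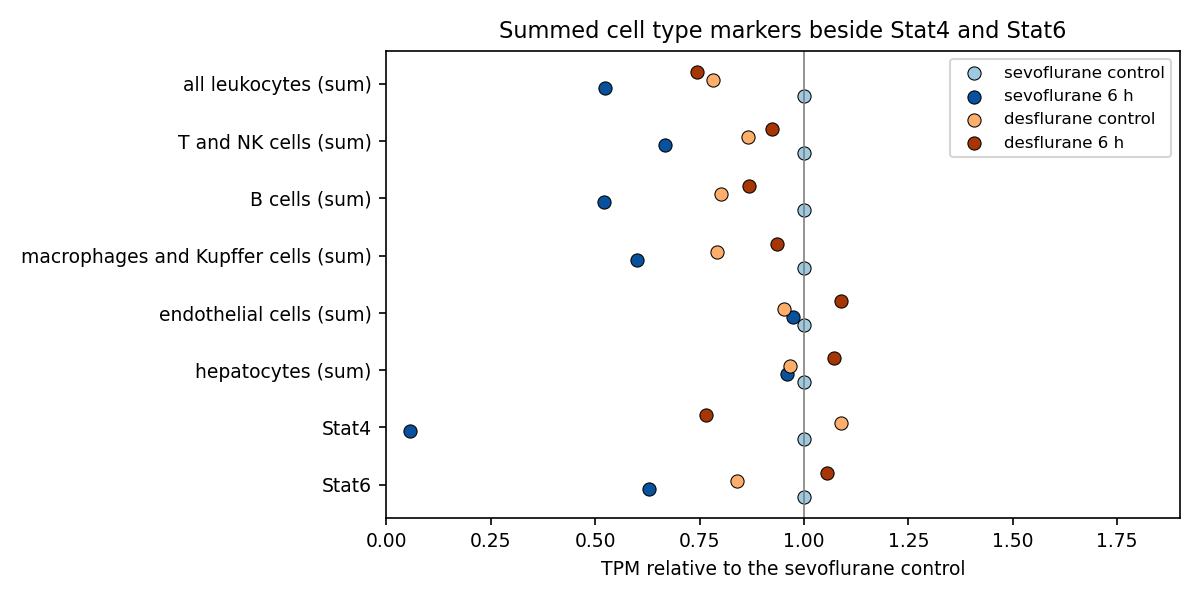
Summed TPM of cell type marker lists and TPM of *Stat4* and *Stat6*, each divided by its value in the sevoflurane control (horizontal axis), 1 point per library. The leukocyte, T and NK cell, B cell, and macrophage sums and both STAT genes are lowest after 6 hours of sevoflurane, whereas the endothelial and hepatocyte sums lie close to 1.

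Upstream of the STATs, 2 of the 4 Janus kinases were nearly level. *Jak1*, the most abundant kinase, was 105.1, 100.5, 103.2, and 107.5 TPM in the order used above, and *Tyk2*, which serves interferon receptors, was between 16.3 and 17.3. *Jak2*, named after its values were seen and used by the growth hormone receptor, was 13.5 in the sevoflurane control and 8.33 after 6 hours of sevoflurane, a 1.62-fold difference, compared with 10.2 and 9.41 in the desflurane pair. None of the 4 kinases was called with either agent. The numbers of genes called below are to be read beside the percentages of all genes given above.

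Among receptor chains, those of the IL-6 family differed most with desflurane. All 7 chains of this group with a mean TPM value higher than 2 were higher with desflurane, with a median log2 change of 0.65 (6 of 7 and 0.53 after scaling), and 2 of them were called. *Il6r*, the IL-6 binding chain, was 57.8 and 64.9 TPM in the sevoflurane pair and 44.1 and 99.8 in the desflurane pair, a 2.27-fold difference with desflurane. *Lepr*, the leptin receptor, was 5.76 and 9.62 with sevoflurane and 6.54 and 13.1 with desflurane, just past the limit with the latter (2.005-fold). *Il6st*, the shared signaling chain gp130, was 112 and 85.9 TPM in the sevoflurane pair and 97.2 and 163 in the desflurane pair, thus lower with one agent and higher with the other. With sevoflurane, 5 of the 7 chains were higher, with a median of 0.17 and none called.

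The interferon and IL-10 family chains showed no calls. All 5 with sufficient expression were higher with desflurane (median 0.33, or 4 of 5 and 0.20 after scaling), among them *Ifnar1* (19.6 and 26.2 TPM) and *Ifngr1* (28.7 and 38.6), and 4 of 5 were lower with sevoflurane (median -0.07). Against the desflurane control, 3 of 5 were higher with sevoflurane (median 0.10). Against the sevoflurane control, 4 of 5 were higher with desflurane (median 0.12, or 0.02 after scaling). All 5 were lower in the desflurane control than in the sevoflurane control (median -0.16). *Ghr*, the growth hormone receptor, was 279 and 219 TPM in the sevoflurane pair and 289 and 258 in the desflurane pair, lower with both agents as *Stat5a* and *Stat5b* were. In its group, 4 of 5 chains were lower with sevoflurane and 2 of 5 with desflurane, with medians of -0.37 and 0.07 (-0.06 after scaling) and no calls against own controls. *Csf2rb* and *Il3ra*, chains of receptors for hematopoietic cytokines, were lower with sevoflurane (6.82 and 3.88 TPM, and 5.94 and 3.24) and higher with desflurane (5.71 and 8.60, and 5.70 and 7.42). The macrophage sums went the same ways, and their part in the values of these chains was not tested. *Csf2ra* was 10.1 and 7.82 with sevoflurane and 8.62 and 9.02 with desflurane, and *Prlr*, the prolactin receptor, was 1.5002 and 1.88, and 4.61 and 2.76.

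*Il4r*, through which STAT6 is activated, ranged from 49.4 to 61.0 TPM over the 4 livers. Its partner *Il13ra1* was between 28.3 and 39.3. Of the 5 expressed chains of the IL-4, IL-12, and common gamma chain group, 3 were lower with sevoflurane and 1 with desflurane. *Il2rg*, the common gamma chain, was called lower with sevoflurane (3.45 and 1.51 TPM) and was 2.54 and 1.99 in the desflurane pair. The sums over all leukocytes given above were lower in the same comparisons. In the desflurane pair, however, the T and NK cell, B cell, and macrophage sums were higher. *Il2rb* was 7.26 and 3.83 with sevoflurane and 4.96 and 8.36 with desflurane, and the sums of T and NK cell markers (56.2 and 37.5, and 48.7 and 51.9) went the same ways as *Il2rb*. Their part was not tested. *Il7r* was 2.15 and 3.28, and 3.83 and 5.24.

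Most ligands were barely detected, and 4 of the 25 present had a mean TPM value higher than 2. *Il15* was called lower with sevoflurane (7.62 and 2.19 TPM) and was 4.93 and 7.17 in the desflurane pair, the same directions as the macrophage sums, whose part was not tested. *Clcf1*, a ligand of the IL-6 family, was called higher with desflurane (1.31 and 4.26 TPM) and was 1.14 and 2.20 with sevoflurane. *Thpo*, the hepatic hormone of platelet formation, was 14.7 and 14.2, and 17.5 and 11.7, and *Ctf1* was 8.44 and 10.04, and 8.57 and 7.31.

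Among the feedback inhibitors, *Socs3* and *Cish* were called lower with both agents against own controls. *Socs3*, an inhibitor induced by STAT3, was 15.2 TPM in the sevoflurane control and 3.74 after 6 hours of sevoflurane, and 24.2 and 9.76 in the desflurane pair, a 4.06-fold and a 2.48-fold difference, whereas *Stat3* was higher in both. *Cish*, an inhibitor induced by STAT5, was 21.9 and 3.63, and 70.0 and 8.40. *Socs2* was 38.8 and 20.3, and 96.4 and 61.2, below the 2-fold limit in both pairs. *Cish*, *Socs2*, and *Socs3* were 3.19-fold, 2.48-fold, and 1.60-fold higher in the desflurane control than in the sevoflurane control. Against the sevoflurane control, *Cish* was called lower with desflurane, and *Socs3* was 1.55-fold lower and not called. *Usp18*, which blocks the type I interferon receptor, was 26.9 and 11.9, and 13.4 and 10.4, and was called with sevoflurane. The remaining inhibitors and phosphatases were not called with either agent, and among the 15 expressed genes of this list 11 were lower with sevoflurane and 9 with desflurane (medians -0.23 and -0.07). *Pias2*, the most abundant PIAS gene, was between 26.5 and 31.5 TPM.

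**Figure D5:**
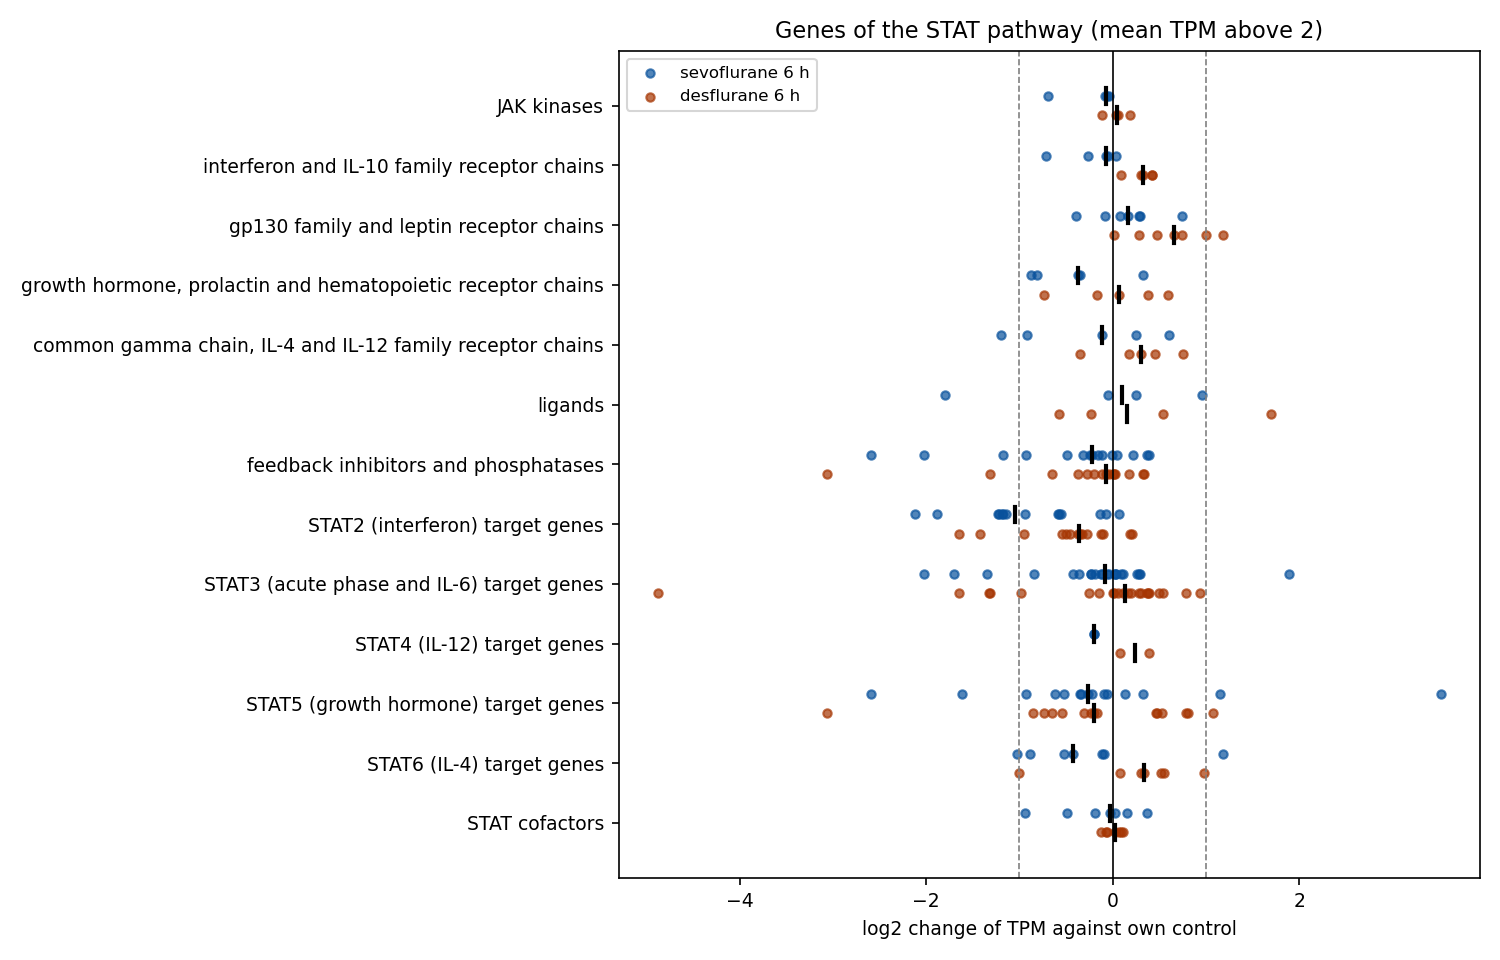
Log2 change of TPM against the control of the same agent (horizontal axis) for genes of the STAT pathway with a mean TPM value higher than 2, by list. Each point is a gene, blue for sevoflurane and brown for desflurane, black bars are medians, dashed lines mark 2-fold, and the interferon targets of STAT2 lie mostly to the left of 0 with medians of -1.04 and -0.36.

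Target genes known for the STATs went with the STAT gene in some lists and against it in others. For STAT2, 13 of 14 interferon targets were lower with sevoflurane and 12 of 14 with desflurane, with medians of -1.04 and -0.36, and 7 and 2 of them were called lower. *Mx2*, an antiviral GTPase, was 29.1 and 12.4 TPM with sevoflurane and 29.3 and 9.38 with desflurane, *Mx1* was 15.1 and 4.09, and 9.28 and 6.38, and *Irf7* was 35.4 and 15.99, and 21.3 and 15.5. *Bst2*, the most abundant, was between 141 and 189 TPM, and *Ddx58* was 37.8 and 25.1, and 33.8 and 23.8. *Stat2* itself was 1.05-fold and 1.27-fold higher against the respective controls. Its partner *Irf9*, which belongs to this list, was 34.4 and 17.9, and 20.6 and 18.9. In the control comparison, 11 of the 14 were lower in the desflurane control (median -0.60), so the sevoflurane control was the high liver for this list.

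The 22 genes of the IL-6 and acute phase response, targets of STAT3, were divided. With sevoflurane 13 were lower and 9 higher (median -0.08, 1 called higher and 3 lower), and with desflurane 7 were lower and 15 higher (median 0.13, or 0.01 with 11 in each direction after scaling, and 4 called lower). The secreted acute phase proteins varied. The 2 most abundant were *Crp*, which was between 6474 and 8838 TPM, and *Hp*, haptoglobin, which was between 4346 and 5285. *A2m*, alpha-2-macroglobulin, was 16.3 and 17.3 TPM with sevoflurane and 12.8 and 22.0 with desflurane, a 1.72-fold difference with the latter. *Hamp*, the iron hormone hepcidin, was 1487 and 458 with sevoflurane and 893 and 30.4 with desflurane, called lower with both agents. *Lcn2*, lipocalin 2, was 3.44 and 12.7, and 18.5 and 5.92, in opposite directions. *Myc*, a proto-oncogene, was 13.1 and 9.78, and 20.1 and 10.2, not called against its own control with either agent.

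Of 15 growth hormone targets of STAT5, 11 were lower with sevoflurane and 9 with desflurane, with medians of -0.27 and -0.20. The list holds both the male-specific *Cyp2c11* and the female-specific *Cyp2c12*, so its counts and medians do not give the direction of a shared response. Calls were 2 higher and 2 lower with sevoflurane, and 1 in each direction with desflurane. *Cish* was the gene called lower with both. Against the sevoflurane control, desflurane gave the other direction, with 7 lower, 8 higher, and a median of 0.12 (0.01 after scaling), and sevoflurane against the desflurane control gave 9 lower with a median of -0.40. The controls themselves differed by 6 genes called higher and 2 lower in the desflurane control (median 0.35), more calls than with either agent against its own control. *Onecut1*, a hepatic transcription factor, was 15.2 and 33.9 TPM with sevoflurane and 61.2 and 41.9 with desflurane. *Cyp2c11*, the male-specific cytochrome, was 1457 and 1245, and 544 and 1146, called higher with desflurane against a control that was the lowest of the 4 livers. *Cyp2c12*, its female-specific counterpart, was 49.996 and 32.6, and 193 and 156, so that the 2 pairs of rats differed more from each other than the livers within a pair. *Cyp2c13* was between 1813 and 2601 TPM and *Cyp3a2* between 1567 and 2599. Members of these cytochrome families are close paralogs and may share reads.

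Among 7 expressed IL-4 targets of STAT6, 6 were lower with sevoflurane and 6 higher with desflurane against own controls. The medians were -0.43 and 0.33 (5 higher with desflurane and 0.21 after scaling), the directions of *Stat6* itself. Against the desflurane control, 5 were lower with sevoflurane (median -0.33). Against the sevoflurane control, 6 were higher with desflurane (median 0.11, or 0.01 with 4 higher and 3 lower after scaling). *Arg1*, arginase, is also a urea cycle enzyme of hepatocytes, and it was 726 and 1646 TPM with sevoflurane, called higher, and 659 and 1298 with desflurane. *Pparg* was 6.32 and 3.11, and 5.94 and 2.95, lower by about the same ratio with both agents and called with both. *Cd163*, a marker that also stands in the macrophage list, was 25.2 and 18.7, and 23.6 and 33.9, and the macrophage sums given above moved in the same directions. The part of cell composition in these values was not tested. For STAT4, 2 of 7 targets were expressed, *Furin* (199 and 173 TPM, and 167 and 218) and *Hlx* (6.03 and 5.27, and 6.31 and 6.66), and neither was called. The STAT cofactors were not called either, with medians of -0.02 and 0.02 (-0.07 and -0.10 after scaling), and *Crebbp* and *Ndufa13* stayed between 28.7 and 31.8 TPM and between 32.1 and 41.3 TPM.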

How the data were processed

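RNA-seq was performed on 4 rat livers, 1 per condition. According to the labels and methods, paired-end reads of 101 bp were trimmed with sickle 1.33, aligned to rn6 with HISAT2 2.1.0, handled with SAMtools 1.10, and quantified with StringTie 2.1.2. The library kit is named differently in the labels and in the methods, so the strand setting of the counting is not given in the sources used here. The authors deposited a table per library with TPM and FPKM values and an average coverage (signal) for each gene row. In the deposited TPM column, the assembled rows, listed under names given by StringTie, sum to 1000000 and annotated rows, on the same scale, to between 779824 and 813454. Read counts were not used here, so counting errors are not given.

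Annotated rows longer than 200 bp were kept, TPM values were summed per gene symbol, and log2 ratios were taken without a pseudocount (Python 3.11.15, numpy 2.4.6, pandas 2.3.3). A gene was called when the higher TPM value exceeded 2 and the difference exceeded 2-fold. The calling step was tested on simulated data. Each 6 hour liver was compared with its own control and with the other control. The same 2 controls therefore enter several comparisons. Columns of unmapped samples numbered 0. Alternatives were the TPM limit, fold limit, pseudocount, scaling, FPKM, coverage, length filter, and handling of repeated symbols. The members and all gene lists were chosen with earlier results of these data known, and the lists share some genes. Named were all members, the 3 nearest profiles of each, and from each pathway list up to 4 called genes by mean TPM and the 2 most abundant. *Jak2*, *Irf9*, *A2m*, *Cd163*, *Alb*, *Cd3d*, *Cd3g*, and *Trat1* fall outside this rule and were named after their values were seen. Promoter sequences came from RefSeq (GRCr8), and proteins were not used here.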

Additional observations from a re-analysis of the deposited data

Results flagged for a closer look

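*Stat6* was lower with sevoflurane and higher with desflurane, on the same side of both controls within each agent (log2 changes against own controls of -0.67 and 0.33). With 1 liver per condition, the difference between agents was not tested, for *Stat6* or for any gene that follows. Its position with desflurane relative to the sevoflurane control reversed after median-of-ratios scaling (-0.03).

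Among the pathway genes named above, 8 showed the same kind of opposition to both controls. *Il6st* was at -0.39 with sevoflurane and 0.75 with desflurane. *Il2rb* was at -0.92 and 0.75, *Csf2rb* at -0.81 and 0.59, *Il3ra* at -0.88 and 0.38, and *Cd163*, a macrophage marker, at -0.43 and 0.52. Against own controls, the macrophage sums (809 and 485 TPM with sevoflurane, 641 and 757 with desflurane) went the same ways. Unlike these genes, the macrophage sum after 6 hours of desflurane was below that of the sevoflurane control. The part of the macrophage sums was not tested. *Hlx* was at -0.20 and 0.079, and *Jak1* at -0.064 and 0.059, the latter changes being smaller than the 0.12 shift of the median gene with desflurane. *Ctf1* went the other way, at 0.25 and -0.23.

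A row that StringTie assembled on the strand opposite to *Stat6*, overlapping the gene, was present only after 6 hours of desflurane, at 1.77 TPM.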

How the results depend on the processing

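Of 348 changes of single members recomputed under the alternatives, 323 kept their direction and their side of the limits, 6 passed the limits only under the alternative, and 19 changed sign, none of them past the limits. Other TPM and fold limits, no length filter, and the highest row of a symbol left every log2 change as it was. A pseudocount cannot reverse a sign. Most of the kept directions were therefore fixed in advance, and only scaling, FPKM, coverage, and assembled rows could change a sign. The 0 members called became 1 in 3 comparisons. Without a TPM limit it was 1, *Stat4*, for sevoflurane against its own control, against the desflurane control, and for desflurane against sevoflurane after 6 hours. With a fold limit of 1.5 it was 1 in the same 3 comparisons, namely *Stat6*, *Stat3*, and *Stat6*. The 4 members with both 6 hour livers on one side of both controls became 1 with FPKM (*Stat5b*), with the limit of 2 kept. *Stat5a* also stayed separated but was below 2 FPKM in every library, whereas *Stat2* and *Stat3* overlapped. On the FPKM scale, the median gene was at 0.19 for sevoflurane against the desflurane control. It was at -0.15 for desflurane against the sevoflurane control, and at -0.20 between controls. The cause was not tested. The 4 members became 3 with median-of-ratios or coverage scaling, which removed *Stat2*. They also became 3 with assembled rows, an alternative chosen after seeing the data, which removed *Stat5b*. Leaving out a replicate was not possible with 1 liver per condition. No paired analysis was possible because each condition had 1 liver. The low coverage of *Stat4* limits its ratios.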

Other observations

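*Stat2* lay in a longer assembled row in every library, 18260 to 18513 bp against 15783 bp for the annotated gene. The TPM values of this row were 113 in the sevoflurane control and 158 after 6 hours of sevoflurane, and 109 and 139 in the desflurane pair, higher than those of the annotated row in each library. The longer row was 1.40-fold higher with sevoflurane and 1.28-fold higher with desflurane, compared with 1.05-fold and 1.27-fold for the annotated row. It started between positions 2689409 and 2689501, before the annotated start at 2691369, and so held sequence outside *Stat2*. Its change is therefore not that of *Stat2* alone. For *Stat3*, the assembled row gave nearly the same TPM values as the annotated row (45.5, 65.1, 39.1, and 52.1), and for *Stat6* the rows were identical. Assembled rows that repeat the annotated ones are not an independent check of them.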
